A study of Mus musculus with 6 samples.

Results

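The liver makes most of the proteins that clot blood. Of 10 such factors (F2, F5, F7, F9, F10, F11, F12, Proc, Pros1 and Klkb1), chosen by name for their function, 9 could be measured in primary mouse hepatocytes with and without RetSat, out of 19938 genes measured in all. Klkb1, which encodes plasma prekallikrein, was the exception, because its probe set also carries the symbol Cyp4v3. Each of the other 9 had a single probe set that named it alone. Of these 9, F11, Pros1 and F7 rose in RetSat-depleted cells at an adjusted p under 0.05 from limma, beside 1.91% of all genes. None fell, beside 1.66% of all genes, and 6 did not pass the test. The call for F11 held whichever single array was left out, whereas those for F7 and Pros1 held in 1 of 6 such fits.

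Hepatocytes came from 1 male C57BL/6J mouse, stated in the series design to be 10 weeks old, and were grown in medium with 25 mM glucose. They received 1 nmol per well of control siRNA (siControl) or siRNA against RetSat (siRetSat), the enzyme retinol saturase, overnight, and RNA was taken 48 h after the next morning's medium change. Each treatment was transfected independently 3 times, and every transfection had its own array (Affymetrix Mouse Gene 1.0 ST). Both groups carry the wild-type genome and the same lipofection reagent, the knockdown is transient, and the p-values measure the spread between transfections of cells of 1 animal. The cells were bulk samples, so fewer cells of a type and less RNA per cell cannot be told apart.

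Clotting factors circulate as inactive precursors, most of them of serine proteases, which activate one another in a cascade. Tissue factor on damaged cells binds factor VII and starts the cascade, the contact factors XII, prekallikrein and XI feed the intrinsic pathway, and factors X, V and prothrombin form the common pathway that ends in fibrin. Protein C and its cofactor protein S switch the cascade off by cleaving activated factors V and VIII. Prothrombin, factors VII, IX and X and proteins C and S need vitamin K, with which the liver carboxylates their glutamate residues so that they bind calcium and membranes. In liver, promoters of several of these genes are known to use HNF4, C/EBP and HNF1 factors.

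The promoter windows of 5 members are shown because they belong to the 3 genes that rose (F11, F7 and Pros1), to F10, the next protein-coding gene after F7 on chromosome 8 in the RefSeq table, and to F9, a vitamin K-dependent factor with no detectable change. They are RefSeq sequences of build GRCm38.p6, from 250 bases before to 50 bases after the annotated start, 5′ to 3′ on the strand of the gene. The windows are chr8:45261982-45262281 on the minus strand for F11, chr8:13025784-13026083 on the plus strand for F7, chr16:62854057-62854356 on the plus strand for Pros1, chr8:13037058-13037357 on the plus strand for F10 and chrX:59999214-59999513 on the plus strand for F9. Capitals mark matches, on either strand, to any of 5 motifs, which were CAAAGNNCA (HNF4 type), TTNNGCAA (C/EBP type), GTTAAT (HNF1 type), CACGTG (the E-box, the core of a carbohydrate response element) and TATAAA (the TATA box).
F11: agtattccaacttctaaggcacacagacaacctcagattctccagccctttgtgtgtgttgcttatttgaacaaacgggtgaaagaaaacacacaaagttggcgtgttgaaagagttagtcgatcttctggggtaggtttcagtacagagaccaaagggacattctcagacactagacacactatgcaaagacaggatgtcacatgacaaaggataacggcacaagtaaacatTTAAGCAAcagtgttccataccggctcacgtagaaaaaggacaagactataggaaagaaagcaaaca
F7: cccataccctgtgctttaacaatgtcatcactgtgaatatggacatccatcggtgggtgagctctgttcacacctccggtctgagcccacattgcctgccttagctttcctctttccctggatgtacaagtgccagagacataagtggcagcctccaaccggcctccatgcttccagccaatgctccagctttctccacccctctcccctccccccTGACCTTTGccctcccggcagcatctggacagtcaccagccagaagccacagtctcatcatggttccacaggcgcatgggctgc
Pros1: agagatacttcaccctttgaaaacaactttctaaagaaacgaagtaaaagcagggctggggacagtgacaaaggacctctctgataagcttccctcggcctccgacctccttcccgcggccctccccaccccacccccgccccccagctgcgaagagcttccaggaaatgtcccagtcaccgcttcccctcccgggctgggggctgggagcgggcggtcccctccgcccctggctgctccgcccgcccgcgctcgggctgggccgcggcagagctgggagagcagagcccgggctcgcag
F10: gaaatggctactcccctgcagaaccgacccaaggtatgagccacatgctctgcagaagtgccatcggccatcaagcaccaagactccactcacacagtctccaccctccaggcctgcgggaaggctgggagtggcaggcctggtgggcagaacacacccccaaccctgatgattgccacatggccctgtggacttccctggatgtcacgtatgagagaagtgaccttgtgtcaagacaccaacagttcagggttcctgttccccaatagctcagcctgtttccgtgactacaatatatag
F9: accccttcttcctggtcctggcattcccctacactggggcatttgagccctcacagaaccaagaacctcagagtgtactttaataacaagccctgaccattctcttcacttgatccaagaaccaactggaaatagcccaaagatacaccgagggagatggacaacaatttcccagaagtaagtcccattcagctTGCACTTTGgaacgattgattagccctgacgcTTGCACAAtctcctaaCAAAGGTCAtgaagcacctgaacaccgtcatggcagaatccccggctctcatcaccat

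The 3 genes that rose shared none of these motifs. F7 held TGACCTTTG, an HNF4-type match that begins at position -34 from the start, and F11 held TTAAGCAA, a C/EBP-type match at position -17, whereas the windows of Pros1 and F10 held no match and appear wholly in lower case. F9 held 2 HNF4-type matches, at -56 and -8, and a C/EBP-type match at -24. The RefSeq table held windows for 9 of the 10 listed genes, all but Proc. Among these 9, the HNF4-type motif was in 2 (F7 and F9), the C/EBP-type motif in 3 (F11, Klkb1 and F9), the HNF1-type motif in 1 (F2), the TATA box in 1 (Klkb1) and the E-box in 0. Of all 32851 windows in that table, 6.36% held the HNF4-type motif, 10.8% the C/EBP-type, 7.1% the HNF1-type motif, 13.6% the TATA box and 7.15% the E-box. No matches overlapped each other in the 5 windows shown. The GC content of the windows was 42.3% for F11, 57.0% for F7 and 66.7% for Pros1, against a median of 52.7% over all windows.

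The knockdown was seen on every array. Retsat lay at 6.80, 7.04 and 7.01 on the log2 intensity scale in siControl 1, 2 and 3, and at 4.62, 4.83 and 4.81 in siRetSat 1, 2 and 3, so that 21.8% of the control signal remained (adjusted p = 0.000112 from limma). The deposited values are normalized log2 intensities, which do not compare levels between genes, because each probe set has its own affinity. Array medians lay between 4.29 and 4.50, and the number of arrays limits the precision. Once the group means were taken off, the leading component held 60.9% of the remaining variance and set the arrays numbered 1 apart in both groups. Of 12 hepatocyte markers 11 were measured, with albumin (Alb) at a mean of 12.98 in siControl and 13.05 in siRetSat. The groups did not overlap for 2 of the 11 in the higher direction and 5 in the lower, beside 9.33% and 10.1% of all genes. The largest upward log2 difference was 0.64 for Cyp3a11 (adjusted p = 0.0761 from limma). None of the 11 rose at an adjusted p under 0.05 from limma, beside 1.91% of all genes. Ahsg, Cps1 and Tat fell, by 0.52, 0.82 and 0.72 on the log2 scale, beside 1.66% of all genes. Ahsg and Cps1 passed in 2 and Tat in 1 of the 6 fits without a single array. All 3 met the P and fold cutoffs of the methods' t-test, but none of the 3 passed that test after Benjamini-Hochberg adjustment. The mean log2 value over these 11 lay between 8.72 and 8.95 on the siControl arrays and between 8.57 and 8.70 on the siRetSat arrays.

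The counts were read against all genes. With limma and an adjusted p below 0.05, 3 of 9 measured clotting factors were higher in siRetSat, against a background of 1.91% of the 19938 genes, and 0 were lower, against 1.66%, so that 3.56% of all genes passed in either direction. At an unadjusted p under 0.05 limma gave 4 members higher and 0 lower, beside 14.5% of all genes in either direction. The median log2 fold change over the 9 was 0.133, beside 0.003 over all genes. All 3 siRetSat values lay above all 3 siControl values for 5 members (F11, F7, F5, Pros1 and Proc), beside 9.33% of all genes, and below them for 1 (F12), beside 10.1%, together 6 members beside 19.5%. With the methods' t-test at its P and fold cutoffs 4 members were higher, beside 3.6% of all genes, and 0 lower, beside 3.55%. Single members differed widely, and their log2 fold changes ran from -0.24 for F10 to 0.80 for F11.

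**Figure D1:**
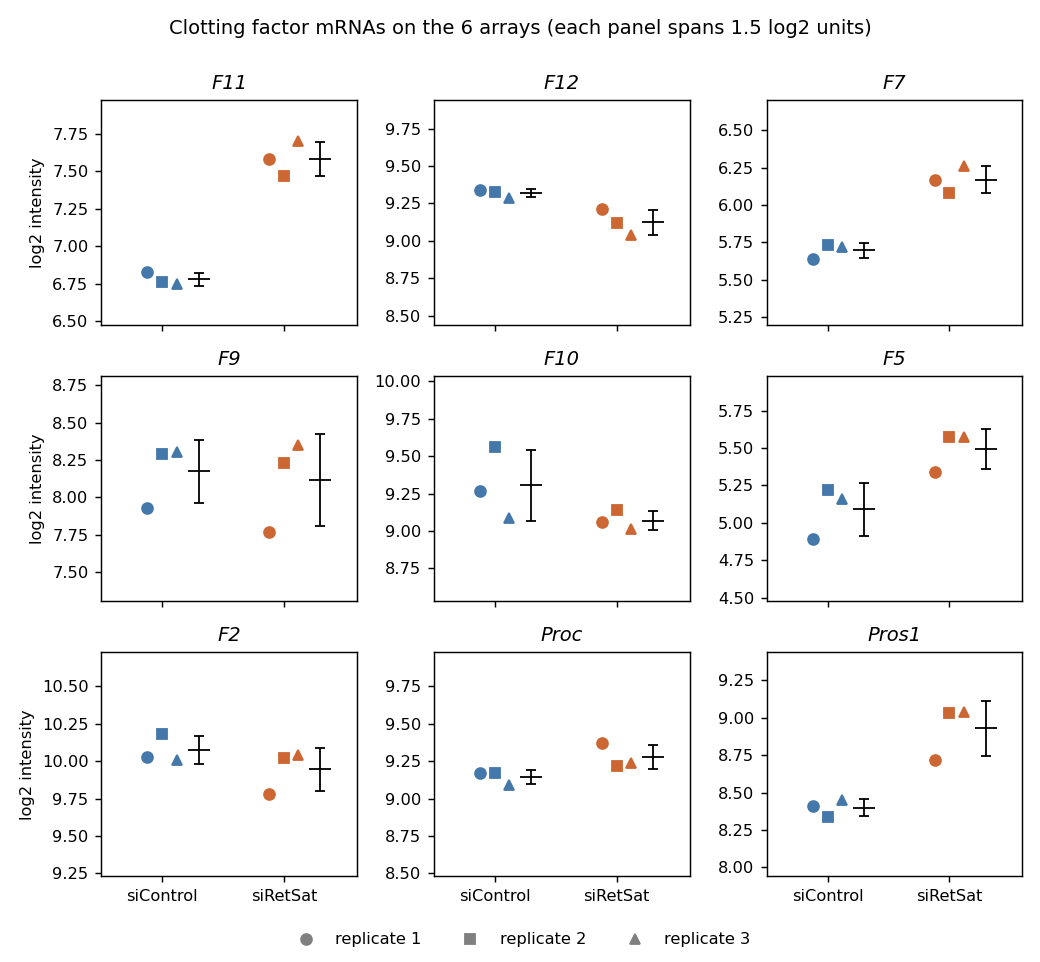
Each panel is 1 clotting factor, with its log2 intensity on the y axis (every panel spans 1.5 log2 units) and the groups on the x axis, where each symbol is 1 array and bars are the group mean and 1 SD to each side (n = 3). F11, F7 and Pros1 show siRetSat values clear of the siControl values, by 0.64, 0.35 and 0.27 between the nearest arrays, whereas F9, F10 and F2 overlap.

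F7 encodes factor VII, the protease that tissue factor carries into the cascade. Its log2 intensities read 5.64, 5.73 and 5.72 in siControl against 6.17, 6.08 and 6.26 in siRetSat. Every siRetSat array lay at least 0.35 above the highest siControl array, while the spread within a group was at most 0.18. The rise was 0.47 on the log2 scale, or 1.39-fold (standard error 0.0882, adjusted p = 0.0267 from limma). It kept its size but not its call when arrays were left out, with log2 fold changes between 0.43 and 0.52 in the 6 fits without a single array and an adjusted p under 0.05 in 1 of them, the one without siRetSat 1. F7 also had an adjusted p above 0.05 without both arrays of any 1 number, with median centring and with the methods' t-test. F3, the gene of tissue factor, had a log2 difference of -0.55, with no overlap between the groups (adjusted p = 0.149). Tfpi, which blocks the tissue factor and factor VII complex, had one of -0.10 (adjusted p = 0.821). Tfpi2 had one of 0.44, with no overlap (adjusted p = 0.0769).

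F11 and F12 belong to the contact and intrinsic pathway. F11 encodes factor XI, which activates factor IX, and had the largest change among the 9. Its log2 intensities read 6.83, 6.76 and 6.75 in siControl against 7.58, 7.47 and 7.70 in siRetSat. The groups were 0.64 apart at their nearest arrays, whereas the siControl arrays differed from each other by only 0.08 and the siRetSat arrays by 0.23. The rise was 0.80 on the log2 scale, or 1.75-fold (95% interval 1.51 to 2.02, adjusted p = 0.00377 from limma). It passed in all 6 fits without a single array, where the adjusted p ran from 0.00888 to 0.0335, and without both arrays numbered 1, but not without both numbered 2 or both numbered 3. In the RefSeq table the protein-coding genes that follow F11 on one side are Klkb1 and then Cyp4v3, which share the probe set that was left out.

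F12 encodes factor XII, which starts the contact pathway on charged surfaces. It lay at 9.34, 9.33 and 9.29 in siControl and at 9.21, 9.12 and 9.04 in siRetSat. All siRetSat values were below all siControl values, yet the difference of -0.20 on the log2 scale did not pass (95% interval -0.39 to 0.00, adjusted p = 0.347 from limma). Factors XI and XII therefore had fold changes of opposite sign. Kng1 and Kng2 encode kininogen, the carrier of prekallikrein and factor XI in plasma. Kng1 had a log2 fold change of -0.20, with no overlap between the groups (adjusted p = 0.316 from limma). Kng2 had one of -0.09, with overlap (adjusted p = 0.841).

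F9 encodes factor IX, the protease that activates factor X and that is missing in haemophilia B. Its values stood at 7.93, 8.29 and 8.30 in siControl, against 7.77, 8.23 and 8.35 in siRetSat. In both groups the array numbered 1 was the lowest, and the spread within a group, 0.37 and 0.58, exceeded the difference between the groups. The log2 fold change was -0.06 (95% interval -0.45 to 0.33, adjusted p = 0.960 from limma), an interval that leaves room for changes in either direction. Its sign turned when siControl 2, siControl 3 or siRetSat 1 was left out, so no direction is given for F9.

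The common pathway genes F10, F5 and F2 did not pass. F10, whose product cleaves prothrombin, lay at 9.27, 9.56 and 9.09 in siControl and at 9.06, 9.14 and 9.01 in siRetSat. Its siControl arrays were spread over 0.47 and reached down into the siRetSat range, and the log2 fold change was -0.24 (95% interval -0.53 to 0.05, adjusted p = 0.477 from limma), or -0.11 without siControl 2. F5 encodes factor V, the cofactor of factor X and a target of protein C. It lay at 4.89, 5.22 and 5.16 in siControl and at 5.34, 5.57 and 5.57 in siRetSat, with no overlap between the groups. The log2 fold change of F5 was 0.40 (95% interval 0.13 to 0.68, adjusted p = 0.134 from limma), which passed only with array weights and with the replicate block. F2 encodes prothrombin, the precursor of thrombin. It lay at 10.03, 10.18 and 10.01 in siControl and at 9.78, 10.02 and 10.04 in siRetSat, where siRetSat 1 was the only array clear of the siControl range. Its log2 fold change was -0.13 (95% interval -0.37 to 0.11, adjusted p = 0.729 from limma), or -0.04 without siRetSat 1 and -0.07 without siControl 2. The interval over all arrays holds no fall to below 77.6% of the control signal and no rise above 1.08-fold.

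The anticoagulant members were protein C and protein S. Pros1 encodes protein S, which also serves as a ligand of the TAM receptors on phagocytes. Its values stood at 8.41, 8.34 and 8.45 in siControl, against 8.72, 9.03 and 9.04 in siRetSat. All siRetSat arrays were higher, with siRetSat 1 the lowest of them, and they spread over 0.32 while the siControl arrays lay within 0.11. The rise was 0.53 on the log2 scale, or 1.44-fold (standard error 0.109, adjusted p = 0.0399 from limma). It passed in 1 of the 6 fits without a single array, the one without siRetSat 1, and also without both arrays numbered 1. It did not pass with median centring, background subtraction or the methods' t-test, nor without both arrays numbered 2 or both numbered 3, though the log2 fold change stayed between 0.45 and 0.64 under all alternatives. Proc, which encodes protein C, lay at 9.17, 9.17 and 9.09 in siControl and at 9.37, 9.22 and 9.24 in siRetSat. The groups did not overlap, but were only 0.05 apart, and the log2 fold change was 0.13 (95% interval -0.07 to 0.33, adjusted p = 0.608 from limma).

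**Figure D2:**
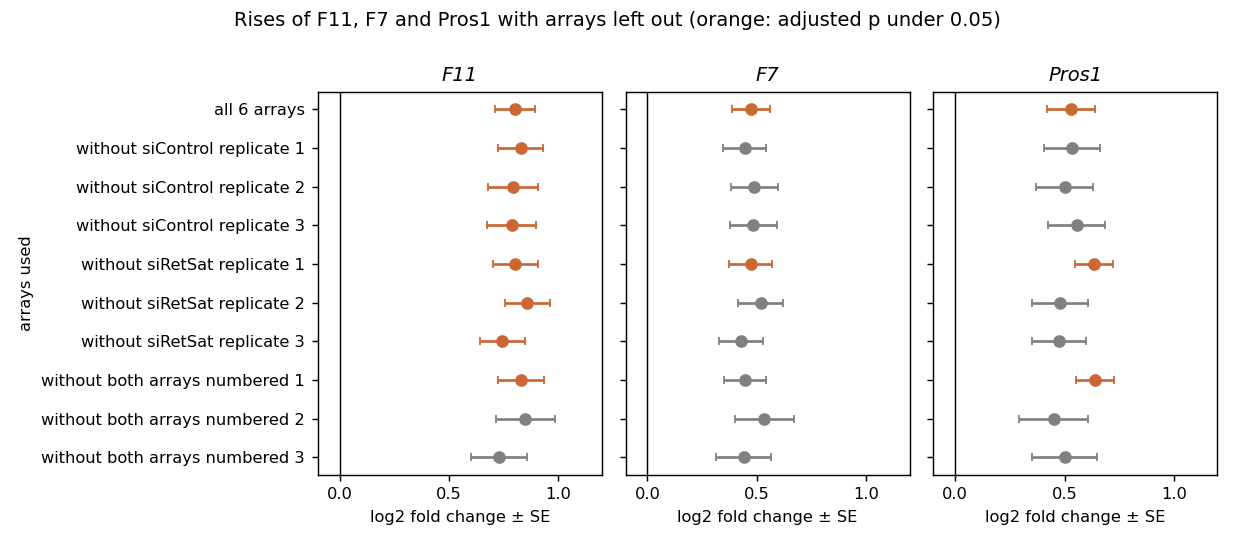
Log2 fold changes of siRetSat over siControl (x axis, points with 1 standard error to each side) for F11, F7 and Pros1 with all 6 arrays and with arrays left out (y axis), where orange marks an adjusted p under 0.05. The estimates stay well above 0 in every row, with F11 between 0.73 and 0.86, while the call is lost for F7 and Pros1 in 5 of the 6 fits without a single array.

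Neighbouring or partnered genes were set against each other within arrays, which removes effects shared by an array. F7 and F10 stand side by side on chromosome 8 with Proz, and F7 and F10 both depend on vitamin K. The log2 value of F7 minus that of F10 was -3.63, -3.83 and -3.37 in siControl and -2.89, -3.06 and -2.75 in siRetSat. Its size reflects probe affinity and only its change can be read. The groups did not overlap and their means were 0.71 apart, at an exact permutation p of 0.1 (two-sided, the smallest that 3 against 3 allow, and 0.2 adjusted over 2 pairs), so the pair could not pass in this design. Proz, the protein Z gene next to F10, had a log2 difference of -0.01 (adjusted p = 0.991 from limma). For Pros1 minus Proc the difference was -0.76, -0.83 and -0.64 in siControl and -0.65, -0.19 and -0.20 in siRetSat. It changed by 0.40, but siRetSat 1 fell within the siControl range (exact permutation p of 0.2, two-sided, and 0.2 adjusted over 2 pairs), and the change was 0.55 without that array.

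**Figure D3:**
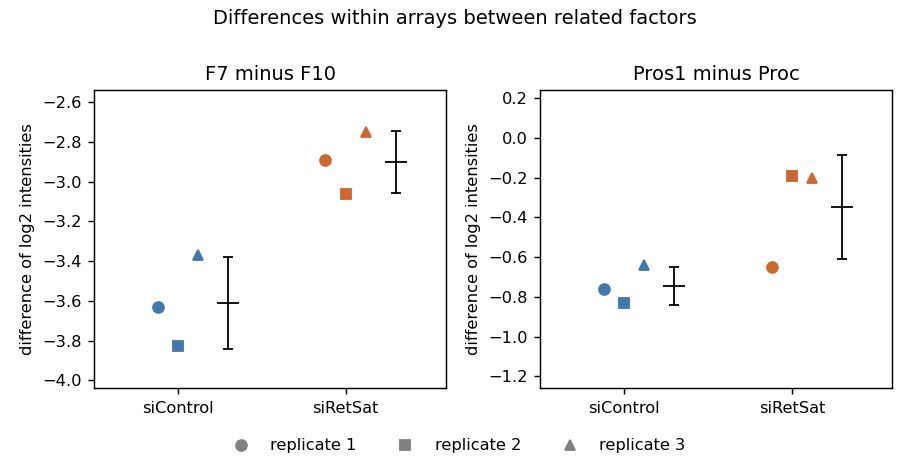
Within-array differences of log2 intensities (y axis) for F7 minus F10 and Pros1 minus Proc in siControl and siRetSat (x axis), with 1 symbol per array and bars for the mean and 1 SD to each side (n = 3). For F7 minus F10 the groups do not overlap and their means are 0.71 apart, whereas for Pros1 minus Proc siRetSat 1 at -0.65 lies among the siControl arrays.

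By dependence on vitamin K, the 6 members that need it (F2, F7, F9, F10, Proc and Pros1) gave 2 rises and 0 falls. Of all genes 1.91% rose and 1.66% fell. The median log2 fold change over these 6 members was 0.04. Of 15 measured genes for the vitamin K cycle or clotting factor folding, sulfation and export, 1 rose and 0 fell, beside those shares. Their median log2 fold change was 0.07, beside 0.003 over all genes. The 1 that rose was Nqo1, a quinone reductase that can reduce vitamin K and is better known as an oxidative stress gene, at 0.95 (adjusted p = 0.0209 from limma). That call held in 2 of the 6 fits without a single array. Vkorc1, the vitamin K epoxide reductase that warfarin blocks, had a log2 difference of 0.27, with no overlap between the groups (adjusted p = 0.238 from limma). Ggcx, the carboxylase itself, had one of 0.13, with overlap (adjusted p = 0.732). Furin, which removes propeptides, had one of -0.36, with no overlap (adjusted p = 0.0933). Tpst2, which sulfates tyrosines, had one of -0.29, with overlap (adjusted p = 0.332). Of 6 measured genes of other carboxylated proteins 1 rose and 0 fell, beside the same shares of all genes, with a median of 0.20. Prrg4, a membrane protein with a carboxylated domain, rose by 1.46, from 6.74, 6.61 and 7.09 in siControl to 7.89, 8.46 and 8.47 in siRetSat (adjusted p = 0.00552 from limma). It passed in all 6 fits without a single array, but not with background subtraction (adjusted p = 0.0731) or without both arrays numbered 2 (0.208). By the methods' t-test Prrg4 met the P and fold cutoffs, but did not pass after Benjamini-Hochberg adjustment (0.108).

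Of 21 other coagulation genes, 1 rose, 3 fell and 17 did not pass, beside 1.91% of all genes higher and 1.66% lower. The median log2 fold change over the 21 was -0.09, beside 0.003 over all genes. The 3 that fell are the fibrinogen chains Fgg, Fga and Fgb, the substrate at the end of the cascade. Fgg, at 10.59, 10.72 and 10.62 in siControl, lay at 9.49, 9.63 and 9.57 in siRetSat, a log2 difference of -1.08 (adjusted p = 0.001 from limma), and Fga and Fgb had changes of -0.65 and -0.42. Fgg passed in all 6 fits without a single array, Fga in 3 and Fgb in 1. Without both arrays numbered 2 none of the 3 passed, and without both numbered 3 Fga and Fgb did not. Fga and Fgb also did not pass with background subtraction, median centring or the methods' t-test after Benjamini-Hochberg adjustment. On the mean of its probe sets Fga did not pass either. The gene that rose was Procr, which encodes the endothelial receptor of protein C. It went from 5.64, 5.62 and 5.59 in siControl to 6.27, 6.50 and 6.50 in siRetSat, a log2 difference of 0.81 (adjusted p = 0.00411 from limma). Procr passed in all 6 fits without a single array, but not without both arrays numbered 2 or both numbered 3. By the methods' t-test it met the P and fold cutoffs, but did not pass after Benjamini-Hochberg adjustment. Thbd, the thrombomodulin with which thrombin activates protein C, had a log2 difference of -0.41, with no overlap between the groups (adjusted p = 0.0915 from limma). Serpinc1, which encodes antithrombin, the main inhibitor of thrombin and factor X, had a log2 difference of -0.03 (adjusted p = 0.969).

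**Figure D4:**
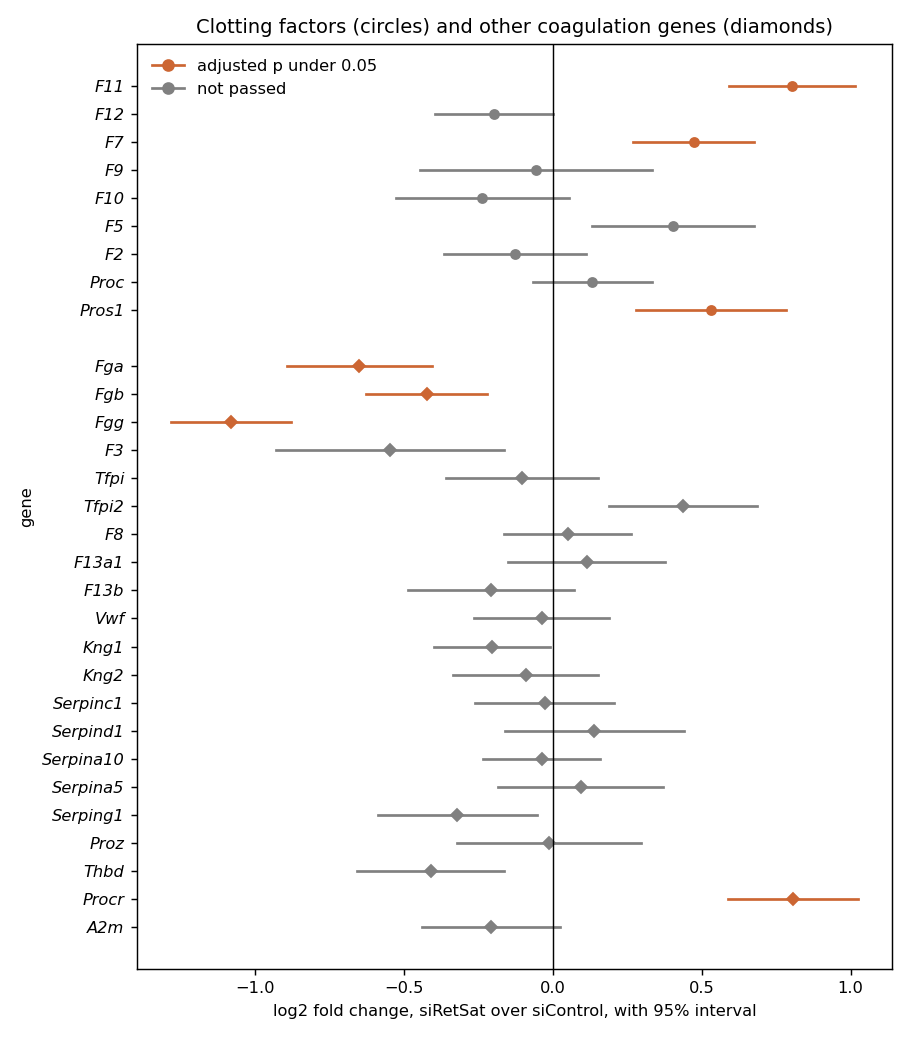
Log2 fold changes of siRetSat over siControl (x axis) with 95% intervals from limma for the 9 measured clotting factors (circles) and 21 other coagulation genes (diamonds), where orange marks an adjusted p under 0.05 (n = 3 arrays per group). Rises of F11 at 0.80, Procr at 0.81, Pros1 at 0.53 and F7 at 0.47 stand opposite falls of Fgg at -1.08, Fga at -0.65 and Fgb at -0.42.

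Of 18 listed transcription factors known at clotting factor promoters, 15 were measured, none of them an HNF1 factor. Of the 15, 1 rose and 1 fell, beside 1.91% of all genes higher and 1.66% lower. Their median log2 fold change was 0.09, beside 0.003 over all genes. Onecut1, which encodes the liver factor HNF6, lay at 6.33, 6.48 and 6.63 in siControl and at 5.0, 5.32 and 5.38 in siRetSat. It fell to 42.1% of the control signal (adjusted p = 0.00248 from limma) and passed in all 6 fits without a single array, but not without both arrays numbered 2. By the methods' t-test Onecut1 met the P and fold cutoffs, but did not pass after Benjamini-Hochberg adjustment. Esr1, which encodes the oestrogen receptor alpha, rose by 0.82 (adjusted p = 0.0244 from limma) and passed in 2 of those 6 fits. Esr1 did not pass with background subtraction, median centring or the methods' t-test after Benjamini-Hochberg adjustment, nor without both arrays of any 1 number. Hnf4a had a log2 difference of 0.10 (adjusted p = 0.730), Cebpa one of -0.01 (adjusted p = 0.992) and Cebpb one of 0.04 (adjusted p = 0.960). Whether any of these factors acts on the clotting factor genes in these cells was not tested.

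Markers of other cells that can make clotting proteins were read beside these results. F5 is also made by megakaryocytes, Pros1 by endothelial cells and F7 and F10 by macrophages. The hepatocytes had been purified on a Percoll gradient, and the share of other cells that remained is not given. None of 5 measured platelet and megakaryocyte markers passed, and 3 of the 5 lay under 4.33, the level below which 40% of all genes lie. Pf4, Ppbp and Gp9 had siRetSat means of 2.73, 2.76 and 4.17, whereas Itga2b and Treml1 stood above that level at 5.06 and 5.58. None of 10 endothelial markers passed, and 1 of the 10 lay under that level of 4.33. The groups did not overlap for Stab2, higher in siRetSat, and Eng, lower, beside 9.33% and 10.1% of all genes. The mean log2 value over the 10 lay between 4.89 and 5.06 on the siControl arrays and between 4.99 and 5.11 on the siRetSat arrays. Of 14 macrophage markers 1 rose, Cd14, by 0.59 (adjusted p = 0.0208 from limma), and 0 fell, beside 1.91% and 1.66% of all genes. Of the 14, 10 lay under that level of 4.33, among them Adgre1 (F4/80) at a siRetSat mean of 3.25 and Csf1r at 3.75. The call for Cd14 held in 2 of the 6 fits without a single array. It was lost with background subtraction, median centring and the methods' t-test after Benjamini-Hochberg adjustment, and without both arrays of any 1 number. Cd68, a lysosomal protein abundant in macrophages, lay at 11.15, 11.24 and 11.03 in siControl and at 11.54, 11.49 and 11.59 in siRetSat, with no overlap (log2 difference 0.40, adjusted p = 0.0563). The mean log2 value over the 14 ran from 4.54 to 4.64 in siControl and from 4.64 to 4.76 in siRetSat. The part of these cells in the values of F5, F7, F10 and Pros1 was not tested.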

How the data were processed

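Total RNA (100 ng) from 3 siControl and 3 siRetSat transfections was labelled and hybridised, and what the authors deposited are log2 intensities, already normalized, of 35556 probe sets. The submitters' processing notes name Partek 6.6 and RMA (background correction, quantile normalization and summary over probes). Neither annotation version nor build is named: not given in the sources used here. GEO's platform annotation named 1 gene for 21789 probe sets, several for 1621 and no gene for 12146. Entrez identifiers led to current RefSeq symbols (GRCm38.p6) for 21698, and 91 kept theirs. Each of 19938 genes was read from its brightest probe set.

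Groups were taken from the sample titles and entered a limma fit without covariates (limma 3.58.1, R 4.3.3, lmFit then eBayes) of siRetSat against siControl. P-values were adjusted by Benjamini-Hochberg across the 19938 genes and called below 0.05. The step was tested on simulated data, with normal noise drawn independently for each gene and array. Unlike these arrays, that noise had no shared component, and fewer genes were changed than the 710 called here. The shares apply to that setting and are not error rates of these data. In it the step recovered 1% of changes of 1.25-fold, 36.9% of 1.5-fold, 77.6% of 2-fold and 98.1% of 4-fold, with 4.3% of calls false. A gene that did not pass may therefore still have changed. Pairs of members were compared by exact permutation over samples; the pair of F11 and Klkb1 could not be compared. The members and gene lists were chosen with earlier results of these data known. The text names all members, Retsat, in each list every gene that passed or at least the 4 with the smallest p, and markers that passed. F3, Tfpi, Tfpi2, Kng1, Kng2, Proz, Thbd, Serpinc1, Ggcx, Hnf4a, Cebpa, Cebpb and the markers that did not pass were named for their role or value after their values were seen. Mgp, Prrg2, Gas6, Stat3 and Nr2f2, which the rule takes too, are given in the closing section. Alternatives were the methods' t-test, a variance trend, the replicate block, another quantile normalization, a filter on genes below the 40th percentile, centring on medians, background subtraction (5th percentile, floor of 16), the mean of probe sets, array weights, and leaving out arrays. Tables and plots used Python 3.11.15, pandas 2.3.3 and matplotlib 3.10.9.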

Additional observations from a re-analysis of the deposited data

How the results depend on the processing

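No alternative gave a clotting factor that fell at an adjusted p under 0.05, and the median log2 fold change over the 9 stayed between 0.08 and 0.175. The count of members that passed, 3 with limma on all arrays, was 1 with median centring, 1 with the methods' t-test after Benjamini-Hochberg adjustment, 0 without both arrays numbered 2, 0 without both arrays numbered 3, and between 1 and 3 without a single array. The fits without siControl 1, 2 or 3 or siRetSat 2 or 3 called 1 member each, and at an unadjusted p under 0.05 limma gave 4 members higher in each of these fits, 1 lower without siControl 3, and between 2104 and 2981 of all genes. Without both arrays numbered 2 or both numbered 3 it gave 4 higher and 0 lower, and 1400 and 1852 of all genes. At the P and fold cutoffs of the methods' t-test 4 members were higher, beside 7.15% of all genes in either direction. The 710 genes past the threshold became 2905 with array weights, 1541 with the replicate block, 1078 with a variance trend, 445 with background subtraction, 342 with median centring, 196 with the methods' t-test after adjustment, 1425 at that test's cutoffs, 822 without both arrays numbered 1, 15 without both numbered 2, 111 without both numbered 3, and between 207 and 646 without a single array. The cause of these shifts was not tested. With the replicate block 4 members passed, F5 in addition, but the correlations of deviations between arrays of the same number were 0.547, 0.0398 and 0.541, and siControl 2 correlated best with siRetSat 3, so the numbers do not establish a pairing. The log2 fold change of F9 reversed without siControl 2, without siControl 3 and without siRetSat 1, within a range of -0.18 to 0.12. The difference of F7 minus F10 changed by 0.60 to 0.83 without a single array, and that of Pros1 minus Proc by 0.32 to 0.55. Retsat had log2 fold changes between -2.44 and -2.13 throughout.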

Other observations

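The probe set that names both Cyp4v3 and Klkb1, and so cannot be assigned to either gene, lay at 8.24, 8.60 and 8.54 in siControl and at 8.46, 8.45 and 8.63 in siRetSat. The groups overlapped and their means differed by 0.05 on the log2 scale.

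Of the other carboxylated proteins, Gas6, which like protein S is a ligand of the TAM receptors, had a log2 difference of 0.19 (adjusted p = 0.393 from limma), with values of 8.04, 8.12 and 8.14 in siControl and 8.18, 8.32 and 8.38 in siRetSat. Prrg2 had one of 0.29, with no overlap (adjusted p = 0.303). Mgp, the matrix protein that prevents calcification, had one of 0.21, with no overlap (adjusted p = 0.272), at a mean intensity under the level of 4.33. Among the transcription factors, Stat3 had a log2 difference of -0.18, with no overlap (adjusted p = 0.467), and Nr2f2 one of 0.20, with overlap (adjusted p = 0.644). Of 5 measured bile duct markers 1 rose, Sox9, by 0.45 (adjusted p = 0.0324 from limma), beside 1.91% of all genes. That call was lost in 5 of the 6 fits without a single array and with median centring. By the methods' t-test Sox9 met the P and fold cutoffs, but did not pass after Benjamini-Hochberg adjustment. None of 9 stellate cell and fibroblast markers or of 6 leukocyte markers passed.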
